A study of Rattus norvegicus with 24 samples.

Results

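C7 encodes complement component C7, a plasma protein of the terminal complement pathway, and it is the 1 gene described here of 32883 genes in the kidney count table. Its row (ENSRNOG00000061379) was chosen by its read counts in these same rats, which differed between groups, so its levels and differences are given as a description, with no test. The question behind the comparisons was how pregnancy changes the maternal kidney in a strain with a normal pregnancy and in one with a preeclampsia-like pregnancy.

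RNA was sequenced from kidney cross-sections, holding cortex and medulla, of 12 female rats aged 2 months. The Sprague-Dawley rat (CD) is an outbred strain used as the model of normal pregnancy. The Brown Norway rat (BN) is an inbred strain whose pregnancies show mild preeclampsia-like symptoms. The study found no glomerular endotheliosis in BN kidneys and states that this and the mild symptoms limit the strain's use for preeclampsia. Each strain gave non-pregnant rats (NP) and rats at day 18 of pregnancy (P18), mated with a male of their own strain, which makes 4 groups of 3 rats: CD-NP, CD-P18, BN-NP and BN-P18. No rat carried an altered allele or received an agent. Between 8274159 and 11879451 reads per rat were assigned to genes, and 14212 genes had enough reads to be tested.

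Complement is a chain of plasma proteins that marks and lyses cells. C1q, made of the products of C1qa, C1qb and C1qc, starts the classical branch. The branches meet at C3 and C5, after which C5b binds C6 and then C7, and the C5b-C6-C7 complex inserts into a membrane where C8 and C9 complete the lytic pore. Most complement proteins come from the liver, while C7 is known to be made largely outside it, and in kidney single-cell surveys C7 is a familiar marker of fibroblasts and other stromal cells.

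C7 was among the more abundant transcripts of the kidney in every group. In CD-NP rats the C7 level was 259.9, 244.8 and 223.5 CPM (reads of the gene per 1000000 reads on genes, after scaling between libraries), from 2687, 2320 and 2039 reads. In CD-P18 rats it was 899.5, 772 and 783.7 CPM, from 10494, 7005 and 7689 reads. In BN-NP rats the level was 385, 401.6 and 274.1 CPM, from 3541, 3300 and 2602 reads. All 3 CD-P18 rats were far above all 3 CD-NP rats, and the BN-NP rats lay between them, with BN-NP replicate 3 close to the CD-NP range. In BN-P18 rats the C7 level was 567.8, 487 and 704.9 CPM, from 5290, 5342 and 6632 reads, which was above every non-pregnant rat and below every CD-P18 rat.

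**Figure D1:**
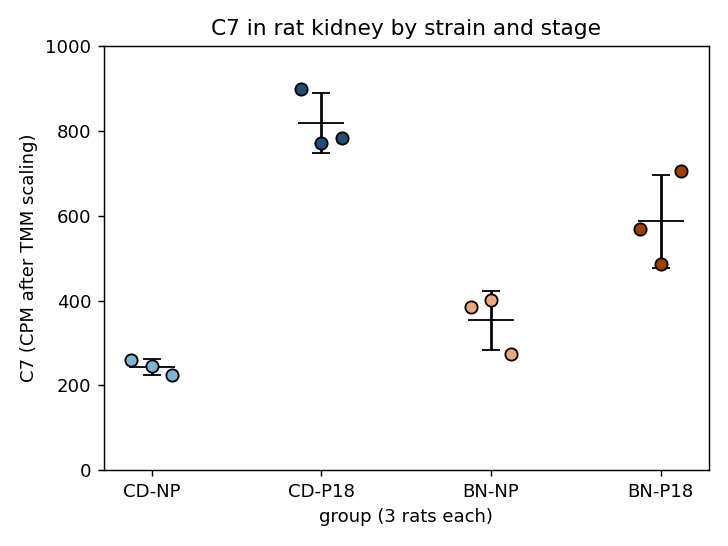
C7 level in each of 12 rats in CPM (vertical axis, from 0) by group (horizontal axis), with points for rats, wide bars for group means and error bars for 1 SD. The CD-P18 rats sit between 772 and 899 CPM and the other 3 groups lie below them without overlap, from BN-P18 through BN-NP to CD-NP.

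The group means were 243 ± 18.3 CPM in CD-NP, 354 ± 69.3 in BN-NP, 587 ± 110 in BN-P18 and 818 ± 70.5 in CD-P18 (SD, n = 3 each). No neighbours in this order overlapped. The gap from the highest CD-NP to the lowest BN-NP rat was the narrowest, 14.3 CPM. The gap was 85.3 CPM between BN-NP and BN-P18 and 67.1 CPM between BN-P18 and CD-P18. Full separation of all 4 groups, in any order, was seen in 25 of the 14212 tested genes, 0.176%, and C7 was the only gene separated in this order, a count that describes the pattern for which C7 was chosen.

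The 2 strains stood in opposite order at the 2 stages. Before pregnancy the higher level was in BN rats, 1.46-fold above CD rats, a log2 difference of 0.54 (SE 0.15). At day 18 the higher level was in CD rats, and BN rats were 1.4-fold lower, a log2 difference of -0.48 (SE 0.14). These comparisons and the pregnancy comparisons share their groups, so they are not independent of each other.

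Pregnancy went with a higher C7 level in both strains. In CD rats the P18 mean was 3.37-fold the NP mean, a log2 fold change of 1.75 (SE 0.15) and a difference of 576 CPM. In BN rats it was 1.66-fold, a log2 fold change of 0.73 (SE 0.15) and a difference of 233 CPM. The pregnancy ratio in CD was thus 2.03 times that in BN, an interaction of -1.02 on the log2 scale (SE 0.21, BN minus CD). The BN log2 fold change was 0.58 without BN-NP replicate 3, the BN-NP rat with the lowest C7 level, and also 0.58 without BN-P18 replicate 3, the BN-P18 rat with the highest. A kidney section holds many cell types, so more C7-expressing cells and more C7 RNA per cell cannot be told apart.

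Measured against other genes, the pregnancy difference of C7 was large for a transcript of its abundance. In CD, 43 of the tested genes had a higher log2 fold change, but only 1 of the 1871 genes with a mean of at least 100 CPM did, and 2 genes gained more CPM. In BN, 309 tested genes had a higher log2 fold change, of which 5 were among those 1871, and 7 genes gained more CPM. Between strains C7 was less extreme. For BN against CD before pregnancy, 37 of the 1871 abundant genes had a higher log2 difference than C7, and at day 18 a lower one was found in 69 of them.

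**Figure D2:**
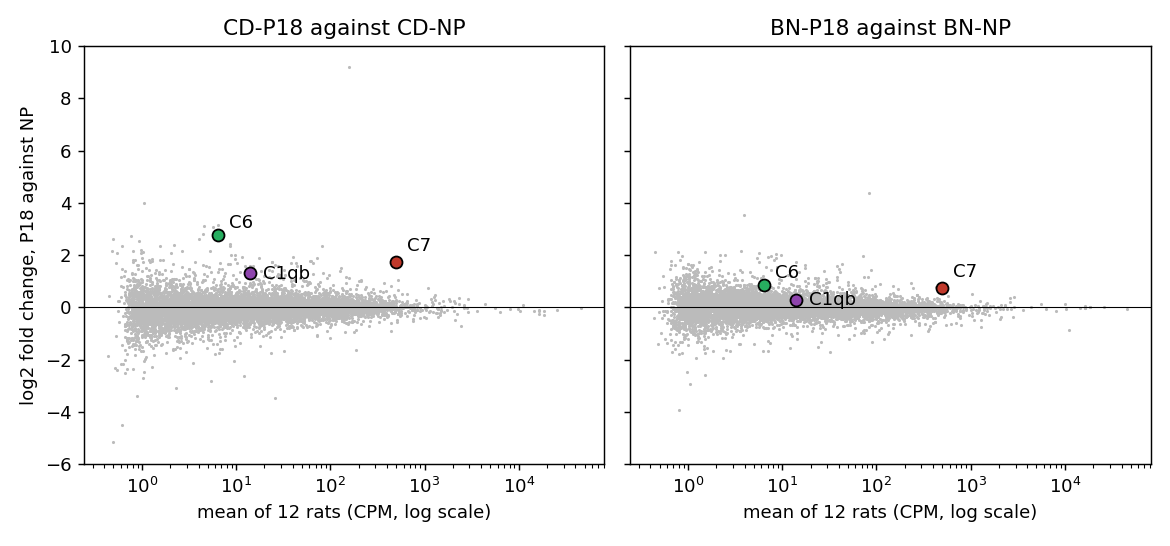
Log2 fold change of P18 against NP (vertical axis) by mean level over 12 rats in CPM (horizontal axis, log scale) for 14212 tested genes (grey), in CD (left) and BN (right). C7 at 1.75 in CD and 0.73 in BN lies above nearly all genes of its abundance, while C6 (2.76 and 0.84) and C1qb (1.31 and 0.29) lie at much lower levels.

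Before pregnancy, C7 took 0.0225 to 0.0261% of all gene reads in a CD rat, and at day 18 it took 0.079 to 0.0883%. In BN the share was 0.0277 to 0.0399% before pregnancy and 0.0497 to 0.0727% at day 18. Ranked by CPM, with no division by transcript length, the C7 group mean held place 493 of 14212 in CD-NP and place 75 in CD-P18. The BN means held place 268 in BN-NP and place 117 in BN-P18. Within groups the rank of C7 by reads ran from 445 to 561 (CD-NP), 72 to 79 (CD-P18), 226 to 395 (BN-NP) and 94 to 154 (BN-P18).

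The transcripts around C7 in the ranking show what these places mean. In CD-NP, C7 stood between Cyb5b (243 ± 38.5 CPM), an outer mitochondrial membrane cytochrome b5, and Ncoa4 (242 ± 9.52 CPM), the receptor that delivers ferritin to autophagy. In CD-P18 it stood just above Fat1 (818 ± 52.4 CPM), a giant cadherin of podocytes and other epithelia. In BN-NP the neighbours of C7 included Dpy19l3 (355 ± 35.6 CPM), Slc9a3r1 (353 ± 30.1 CPM), the NHERF1 scaffold of the proximal brush border, and Dmxl1. In BN-P18, C7 lay between Mep1a (598 ± 71.5 CPM), a brush border metalloprotease, and Ass1 (585 ± 121 CPM), an enzyme of arginine synthesis. Of the neighbours in these rankings, 7 had no symbol.

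**Figure D3:**
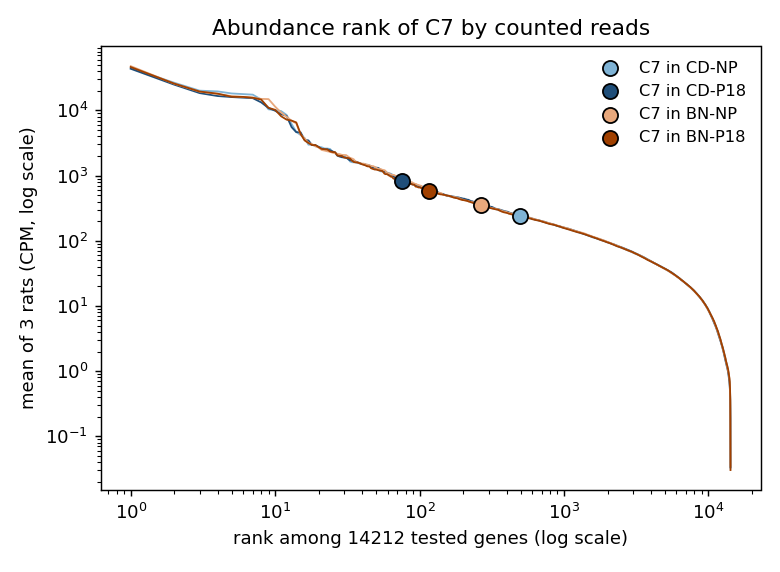
Mean level of 3 rats in CPM (vertical axis, log scale) by rank among 14212 tested genes (horizontal axis, log scale), 1 line for each group, with C7 as a point on each. C7 moves along near-identical curves from place 493 in CD-NP to place 75 in CD-P18, and from place 268 in BN-NP to place 117 in BN-P18.

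Rats of 1 group differed in C7 by more than counting alone gives. The coefficient of variation was 7.53% (NP) and 8.61% (P18) in CD rats and 19.6% and 18.8% in BN rats, while the mean counting error of a rat was 1.1 to 2.07%. The inbred BN rats thus varied more in C7 than the outbred CD rats, with SDs of log2 CPM of 0.302 and 0.268 against 0.109 and 0.122, a difference that was not tested. Pooled over groups, the within-group SD of C7 was 0.218 on the log2 scale. The median of the 1871 genes of at least 100 CPM was 0.098, and 91.4% of them varied less than C7.

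The other complement genes could be followed only in part. Of 46 complement genes listed by role, 9 could be tied to a row, and 8 of these had enough reads to be tested. The table names genes by Ensembl identifier, and symbols were available for 2926 tested genes, most of which the study had picked for a low p-value in these same rats. Symbol-bearing genes are therefore richer in changed genes, and the counts below are no independent evidence of a direction. None of the 7 genes around C3, C5 and the alternative pathway could be followed, and C6 was the only one of 6 terminal pathway genes. Mbl1, a mannose-binding lectin of the lectin branch, had 0 to 8 reads per rat and was not tested.

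A gene was called changed at an adjusted p below 0.1 with a log2 fold change beyond 0.32 in either direction (edgeR quasi-likelihood test, Benjamini-Hochberg adjustment over all 14212 genes). In CD, 4 of the 8 complement genes were called, all higher at P18, against 4.71% of all tested genes and 21.4% of genes with a symbol. In BN, 2 of 8 were called, both higher at P18, against 1.4% and 6.46%. The median log2 fold change of the 8 genes was 0.39 in CD and 0.46 in BN, and that of genes with a symbol was -0.01 and 0.01.

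Between the strains, 2 of the 8 were called before pregnancy, 1 higher and 1 lower in BN, against 8.38% of all tested genes and 35.8% of those with a symbol. At day 18, 4 of 8 were called, 1 higher and 3 lower in BN, against 9.6% and 40.4%. C5ar2, among those lower in BN at both stages, had enough reads to be tested only through the CD rats. The share at day 18 was near that of symbol-bearing genes, and the share before pregnancy was below it. The interaction of pregnancy with strain was called at an adjusted p below 0.1 in 1 of 8, against 0.943% of all tested genes and 4.44% of those with a symbol. Median log2 values of the 8 were 0.2 before pregnancy, -0.29 at day 18 and -0.18 for the interaction.

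C6, whose product binds C5b just before C7 does, was the terminal pathway gene beside C7. The C6 level was 2.03, 2.11 and 1.42 CPM in CD-NP rats, from 13 to 21 reads. It was 24.3, 4.74 and 8.46 CPM in CD-P18 rats, from 284, 43 and 83 reads. CD-P18 replicate 1, the rat with the most C7, held by far the most C6, and all 3 CD-P18 rats were above all 3 CD-NP rats. In BN the C6 level was 5.44, 4.26 and 2.53 CPM at NP and 7.08, 6.02 and 8.82 CPM at P18, again without overlap.

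The C6 means of 1.86 ± 0.375 CPM in CD-NP, 4.07 ± 1.46 in BN-NP, 7.31 ± 1.42 in BN-P18 and 12.5 ± 10.4 in CD-P18 (SD, n = 3) stood in the order of the C7 means, at far fewer reads. C6 rose in CD, with a log2 fold change of 2.76 (SE 0.52, edgeR adjusted p = 0.0125). Without CD-P18 replicate 1 the C6 log2 fold change in CD was 1.82 and remained called. In BN the C6 log2 fold change was 0.84 (SE 0.49, edgeR adjusted p = 0.621). C6 was not called for either strain comparison, at 1.12 before pregnancy and -0.80 at day 18, nor for the interaction, at -1.92 (SE 0.73, edgeR adjusted p = 0.3).

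**Figure D4:**
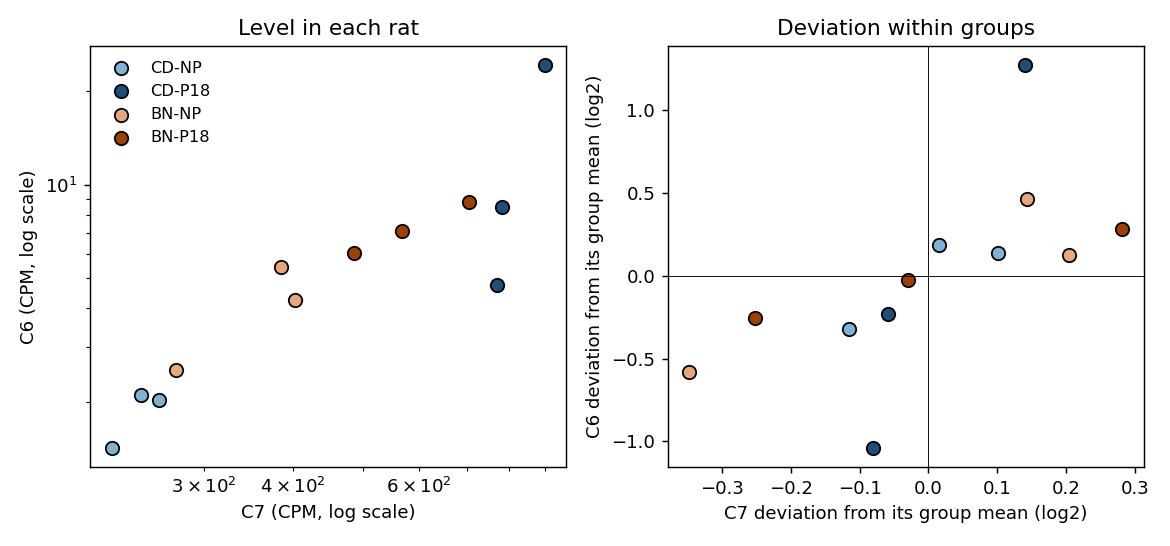
C6 against C7 in 12 rats, as levels in CPM (left, both axes log scale) and as log2 deviations from each rat's group mean (right), 1 point for each rat coloured by group. C6 and C7 deviate to the same side in every rat, and CD-P18 replicate 1 stands apart with 24.3 CPM of C6.

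Within groups, C6 and C7 could also be set side by side. Both genes deviated to the same side of their group means in 12 of 12 rats. The 3 deviations of a group sum to 0, so these are not 12 independent agreements. The sizes differed, and in CD-P18 replicate 1 C6 deviated by 1.271 and C7 by 0.14 on the log2 scale. The correlation of these deviations over 12 rats was 0.65 (Pearson's r) and 0.83 (Spearman's rho), and r was 0.64 without BN-NP replicate 3 and BN-P18 replicate 3, the 2 rats farthest out in C7. Both values of a rat come from 1 library, with its depth and RNA quality, and 2.54% of 13773 genes had a higher r with C7 than C6 had.

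The C1q genes, whose products are made mainly by macrophages in tissues, were the largest group followed. C1qa was 16.1, 12.6 and 11.4 CPM in CD-NP and 12.4, 11.8 and 12 in BN-NP, against 19, 20.3 and 23.4 in CD-P18 and 21.1, 15.3 and 21.4 in BN-P18. C1qa thus rose without overlap in both strains, by 0.64 in CD (SE 0.15, edgeR adjusted p = 0.0392) and 0.67 in BN (SE 0.16, edgeR adjusted p = 0.0786) on the log2 scale. C1qc rose by 0.88 in CD (SE 0.15, edgeR adjusted p = 0.00636) and by 0.62 in BN (SE 0.15, edgeR adjusted p = 0.0951), and at day 18 it was lower in BN than in CD by a log2 difference of -0.47 (SE 0.14, edgeR adjusted p = 0.0676). The BN calls were lost in 6 (C1qa, log2 0.59 to 0.69) and 9 (C1qc, log2 0.51 to 0.74) of 12 fits that each left out 1 rat, any BN-NP rat among them, and the C1qa call in CD was lost without CD-NP replicate 2, CD-NP replicate 3 or CD-P18 replicate 3 (0.54 to 0.60). The C1qc call at day 18 was lost without BN-P18 replicate 2 or 3 or CD-P18 replicate 1 or 3 (-0.51 to -0.34).

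C1qb was called with pregnancy in CD and, unlike C1qa and C1qc, not in BN. Its level was 11.4, 10 and 7.45 CPM in CD-NP and 22, 23.3 and 26.6 in CD-P18, against 11.6, 9.01 and 10.5 in BN-NP and 14.8, 10.9 and 12.5 in BN-P18. The CD groups were far apart and the BN groups overlapped. The log2 fold change was 1.31 in CD (SE 0.16, edgeR adjusted p = 0.00094) and 0.29 in BN (SE 0.17, edgeR adjusted p = 0.617). The interaction was -1.02 (SE 0.23, edgeR adjusted p = 0.0868), and it passed the threshold in 2 of 12 fits that each left out 1 rat, those without CD-NP replicate 1 or BN-P18 replicate 1, with -1.11 to -0.87 in the other 10. At day 18 C1qb was lower in BN than in CD by a log2 difference of -0.91 (SE 0.16, edgeR adjusted p = 0.00307).

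**Figure D5:**
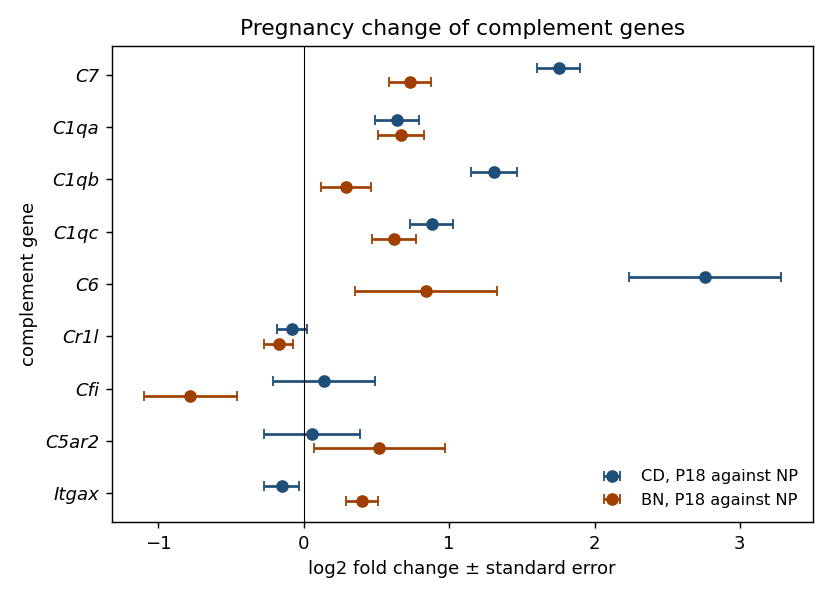
Log2 fold change of P18 against NP (horizontal axis) with its standard error (bars) for C7 and 8 other complement genes (vertical axis) in CD (blue) and BN (brown). C7, the 3 C1q genes and C6 lie to the right of 0 in both strains. Of these, C7, C1qb, C1qc and C6 lie further right in CD than in BN. This difference passed the interaction test for C1qb and not for C1qc or C6, and was not tested for C7.

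Regulators and receptors of complement showed differences between the strains and none with pregnancy that passed the test. Cfi encodes factor I, the protease that cleaves C3b and C4b, and it was higher in BN than in CD before pregnancy (5.7 ± 0.246 against 2.74 ± 0.648 CPM, log2 1.05, SE 0.33, edgeR adjusted p = 0.0827), a call lost in 7 of 12 fits that each left out 1 rat (0.94 to 1.07), any BN-NP rat among them. Cr1l, a membrane regulator of the C3 convertases, was called in no comparison and lay at 66.6, 63.1, 82.0 and 73.1 CPM in CD-NP, CD-P18, BN-NP and BN-P18. C5ar2, a C5a receptor, was lower in BN at both stages, by a log2 difference of -1.78 before pregnancy (SE 0.40, edgeR adjusted p = 0.0207) and -1.31 at day 18 (SE 0.37, edgeR adjusted p = 0.0471), from 0.676 to 2.4 CPM. With 5 to 14 reads in BN rats, C5ar2 could be tested only through the CD rats. That favours a lower level in BN, so its strain calls are a description. The C5ar2 call at day 18 was lost without BN-P18 replicate 1 or CD-P18 replicate 1 (-1.04 and -1.05). Itgax, the alpha chain of complement receptor 4 (CD11c), was higher in BN at day 18, 19.6 ± 1.86 against 10.6 ± 0.557 CPM (log2 0.89, SE 0.12, edgeR adjusted p = 0.000468).

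C7 and C6 are also close neighbours in the genome. In the RefSeq gene order of assembly GRCr8, 25 genes lie within 1 Mb of C7 on chromosome 2, 13 of them protein-coding, and 2 could be tied to a row. C6 was called in CD, as above, and neither was called in BN. The other was Plcxd3, a phospholipase C-like gene at 1.03 (NP) and 0.913 (P18) CPM in CD rats and 0.117 and 0.197 CPM in BN rats. Plcxd3 was not called with pregnancy, and was lower in BN than in CD by a log2 difference of -3.07 before pregnancy (SE 0.80, edgeR adjusted p = 0.0401) and -2.14 at day 18 (SE 0.70, edgeR adjusted p = 0.0856), at levels near the smallest that were tested. Plcxd3 had enough reads to be tested only through the CD rats, which favours a lower level in BN, so these strain calls are a description. These calls were lost in 3 (-3.05 to -2.49) and 6 (-2.57 to -1.62) of 12 fits that each left out 1 rat. The Plcxd3 call at day 18 held under 3 of 7 processing alternatives.

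The genes that followed C7 from rat to rat within groups were ranked next. Over 13773 genes of at least 1 CPM, the within-group correlation with C7 ran from -0.94 to 0.97 with a median of 0, and 49.5% of genes lay above 0. The 12 highest, from 0.97 down to 0.87, held 3 genes with a symbol. Pdia3, a disulfide isomerase that folds glycoproteins in the endoplasmic reticulum, followed C7 with r = 0.92 and rho = 0.87 (r = 0.86 without BN-NP replicate 3 and BN-P18 replicate 3). Its level was 372 ± 15.9 and 402 ± 16.3 CPM in CD and 449 ± 33.2 and 427 ± 19.5 CPM in BN, NP and P18 in turn, and it was not called. Tnfsf12, which encodes the cytokine TWEAK, had r = 0.89 and rho = 0.87 and was not called in any comparison.

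Panx2, a pannexin channel gene, had r = 0.87 and rho = 0.88 with C7 within groups, yet it fell with pregnancy in CD (17.3 ± 1.66 to 11.3 ± 2.12 CPM, log2 -0.61, SE 0.17, edgeR adjusted p = 0.073), a call lost in 5 of 12 fits that each left out 1 rat (-0.61 to -0.50). At day 18 Panx2 was higher in BN than in CD (log2 0.59, SE 0.17, edgeR adjusted p = 0.0491), where C7 was lower, a call lost without BN-P18 replicate 3, CD-P18 replicate 2 or CD-P18 replicate 3 (0.42 to 0.54). Panx2 was the only one of the 12 called in CD, against 4.71% of all tested genes and 21.4% of those with a symbol. The 5 genes with the lowest correlation, from -0.94 to -0.92, had no symbol. The 12 genes changed with single rats: between 2 and 9 of them stayed among the 12 highest when 1 rat was left out, with 2 left without BN-P18 replicate 3. Each point takes both genes from 1 library, and the 12 points leave 8 degrees of freedom within groups, so these correlations are a description.

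A second likeness compared group means, each gene's 4 log2 means centred on their own mean, where C7 had -0.88 in CD-NP, -0.36 in BN-NP, 0.37 in BN-P18 and 0.87 in CD-P18. Of the 10 nearest genes 7 had a symbol, and nearness to C7 fixes the direction of their pregnancy change. MGC108823 was nearest (distance 0.226 on the log2 scale), at 3.57, 9.89, 4.78 and 7.94 CPM in CD-NP, CD-P18, BN-NP and BN-P18. Col6a5, which encodes a chain of collagen VI, lay at 17.9, 57.5, 25.6 and 53 CPM in these groups, the most abundant of the named 7 in pregnant rats. Cdk1, the mitotic kinase, was near C7 in pattern (distance 0.315) at only 0.517 to 1.91 CPM. Cyp1b1, a cytochrome P450 of steroid and xenobiotic oxidation, went from 3.41 to 8.7 CPM in CD and from 4.74 to 8.64 CPM in BN.

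The other 3 of the 7 were Lgals9, Dhx58 and Ube2l6. Lgals9, which encodes galectin-9, went from 17.8 ± 3.26 to 42.6 ± 4.15 CPM in CD and from 20.7 ± 2.63 to 35.4 ± 6.96 CPM in BN. Dhx58, the RIG-I-like receptor LGP2, went from 6.78 to 20.5 CPM in CD and from 6.74 to 15.7 CPM in BN. Ube2l6, an enzyme that conjugates ISG15, went from 3.07 to 7.92 CPM in CD and from 3.42 to 7.35 CPM in BN. None of these 7 reached the level of C7, which was 243 to 818 CPM in the group means.

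Markers of kidney cell types were set beside C7, as far as they had a symbol. The labelled tissue was borne out by markers of the proximal tubule and distal tubule in every rat, with summed levels of 1860 to 3680 and 699 to 973 CPM, and no marker followed was at 0 in all rats. Of 10 fibroblast and interstitium markers, 2 could be followed, Fbln1 and Cdh11, an extracellular matrix protein and a mesenchymal cadherin. Both rose with pregnancy in CD (2 of 2 called, against 4.71% of all tested genes and 21.4% of those with a symbol) and both were higher in BN than in CD before pregnancy (2 of 2, against 8.38% and 35.8%). The strain call before pregnancy was lost for Fbln1 without CD-NP replicate 2 (0.73) and for Cdh11 in 5 of 12 fits leaving out 1 rat (0.42 to 0.51). In BN their log2 fold changes with pregnancy were 0.01 (SE 0.19) for Fbln1 and 0.23 (SE 0.14) for Cdh11, and neither was called. Their summed level was 59.9 to 75.4 CPM in CD-NP and 93.5 to 107 in BN-NP, against 98.4 to 108 in CD-P18 and 84.3 to 140 in BN-P18.

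Fbln1 was 21 ± 3.63 CPM in CD-NP and 37.7 ± 3.51 in BN-NP, against 34.9 ± 5.17 in CD-P18 and 38 ± 12.3 in BN-P18, with log2 0.73 in CD (SE 0.20, edgeR adjusted p = 0.0687). Cdh11 had a log2 fold change of 0.55 in CD (SE 0.14, edgeR adjusted p = 0.0538). The log2 fold change of C7 in CD was 1.75. Each of these CD calls was lost in 4 of 12 fits that left out 1 rat, with log2 0.62 to 0.73 for Fbln1 and 0.50 to 0.52 for Cdh11. Within groups the summed level of the pair had a correlation of 0.47 with C7 over 12 rats. Alone, Fbln1 had 0.65 and Cdh11 had 0.26. Without BN-NP replicate 3 and BN-P18 replicate 3 these were 0.52 and -0.07. The part of fibroblast content in the C7 differences was not tested.

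Of 8 macrophage markers, 4 could be followed. Cd68, Csf1r and Mrc1 rose in CD (3 of 4, against 4.71% of all tested genes and 21.4% of those with a symbol). Aif1 had a log2 value of -0.08 in CD (edgeR adjusted p = 0.89). In BN the log2 fold changes of the 4 ran from -0.22 (Mrc1) to 0.33 (Cd68), and none was called by edgeR. Their summed level was 74.2 to 84.7 CPM in CD-NP and 70.3 to 77.6 in BN-NP, against 99.4 to 127 in CD-P18 and 87.8 to 91.8 in BN-P18. This sum was higher at P18 without overlap in both strains, and the share of all genes separated in this way was not counted. Its largest part was Csf1r, at 48.8 to 71.5 CPM in the group means. Before pregnancy the sums of the strains overlapped, and at day 18 those of BN lay below those of CD. Mrc1, the macrophage mannose receptor, rose from 5.16 ± 0.649 to 18.9 ± 1.12 CPM in CD (log2 1.86, SE 0.19, edgeR adjusted p = 0.000298) and was 7.94 ± 1.04 and 6.89 ± 1.94 CPM in BN. Its interaction was -2.08 (SE 0.27, edgeR adjusted p = 0.00698). Mrc1 was higher in BN than in CD before pregnancy (log2 0.62, SE 0.20, edgeR adjusted p = 0.093). This call was lost in 8 of 12 fits leaving out 1 rat. At day 18 Mrc1 was lower in BN (log2 -1.46, SE 0.18, edgeR adjusted p = 0.000344). Each was 1 of 4 markers, against 8.38% and 9.6% of all tested genes and 35.8% and 40.4% of those with a symbol. The within-group correlation with C7 over 12 rats was -0.03 for the macrophage sum and 0.61 for Mrc1 alone (0.58 without BN-NP replicate 3 and BN-P18 replicate 3), and the part of macrophages in these results was not tested.

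Of the epithelial markers, several fell in CD and others were not called there. Nphs1, which encodes the podocyte slit diaphragm protein nephrin, fell in CD from 114 ± 34.7 to 76 ± 3.24 CPM (log2 -0.58, SE 0.15, edgeR adjusted p = 0.0632). Without CD-NP replicate 2 the Nphs1 log2 value was -0.30 and was not called, and the call was also lost without any 1 CD-P18 rat (-0.61 to -0.55). For Nphs1 in BN the log2 value was -0.24 (SE 0.15, edgeR adjusted p = 0.651). Of 3 proximal tubule markers, the phosphate transporter gene Slc34a1 fell in CD (log2 -0.47, SE 0.13, edgeR adjusted p = 0.0818). The glucose transporter gene Slc5a2 fell in BN (log2 -0.64, SE 0.15, edgeR adjusted p = 0.0767). In CD Slc5a2 had -0.10 and Slc22a6 had 0.11, and in BN Slc34a1 had -0.35 and Slc22a6 had -0.29, none of these called. Over all tested genes 4.71% were called in CD and 1.4% in BN, and over those with a symbol 21.4% and 6.46%. Between strains, Slc22a6 was higher in BN before pregnancy (log2 0.59, SE 0.14, edgeR adjusted p = 0.0307). This was 1 of 3, against 8.38% of all tested genes and 35.8% of those with a symbol. Slc5a2 was lower in BN at day 18 (log2 -0.73, SE 0.15, edgeR adjusted p = 0.00832), 1 of 3, against 9.6% and 40.4%. The Slc22a6 call was lost in 3 of 12 fits leaving out 1 rat. Of 3 distal tubule markers, Slc12a3, the thiazide-sensitive cotransporter, fell in CD (log2 -0.44, SE 0.08, edgeR adjusted p = 0.012) with an interaction of 0.54 (SE 0.12, edgeR adjusted p = 0.0695) that was lost in 9 of 12 fits leaving out 1 rat. Trpm6 and Trpv5 had log2 values of -0.03 and -0.22 in CD and were not called.

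The other marker lists held few genes that could be followed. Of 4 endothelial markers 1, Egfl7, was called in CD, at a log2 fold change of -0.51 (SE 0.15, edgeR adjusted p = 0.0943). In CD 4.71% of all tested genes and 21.4% of those with a symbol were called. The Egfl7 call was lost under 3 of 8 processing alternatives and in 9 of 12 fits leaving out 1 rat. Tek, Flt1 and Cdh5 had log2 values of 0.29, 0.28 and -0.17 in CD and were not called, and the endothelial sum was 299 to 322 CPM in CD-NP and 340 to 343 CPM in CD-P18. Neither smooth muscle and pericyte marker followed (Pdgfrb, Notch3) was called with pregnancy in either strain. The 2 collecting duct markers followed, Scnn1g and Slc4a1, were not called with pregnancy. Both were lower in BN before it (2 of 2, against 8.38% of all tested genes and 35.8% of those with a symbol). Their summed level had a within-group correlation of -0.69 with C7. The 2 mesothelial markers, Msln and Krt19, summed to 3.84 to 7.35 CPM in CD-NP and 8.15 to 14.1 in BN-NP, against 4.37 to 5.4 in CD-P18 and 7.51 to 22.2 in BN-P18, and neither was called with pregnancy. Krt19 was higher in BN before pregnancy (log2 1.13, SE 0.31, edgeR adjusted p = 0.0496) and at day 18 (1.23, SE 0.30, edgeR adjusted p = 0.0254), and Msln at day 18 (2.86, SE 0.69, edgeR adjusted p = 0.0226). Before pregnancy 1 of the 2 was thus called, against 8.38% of all tested genes and 35.8% of those with a symbol. At day 18 it was 2 of 2, against 9.6% and 40.4%. Msln, at 0.743 ± 0.315 CPM in CD-P18 and 5.35 ± 3.1 in BN-P18, had enough reads to be tested only through the BN rats. That favours a higher level in BN, so the Msln call and its part in this count are a description. The Krt19 calls were lost in 4 (0.97 to 1.10) and 1 (0.85, without BN-P18 replicate 3) of 12 fits leaving out 1 rat. No marker of the thin limb, thick ascending limb or adipocyte could be followed. The part of any of these cell types in the C7 differences was not tested.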

How the data were processed

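Per the labels and the study's methods, total RNA from a kidney section of each rat was made into stranded, ribosomal RNA-depleted libraries. Reads were trimmed with Trimmomatic, aligned to Rnor_6.0 with STAR (version 2.5.2 in the submitters' processing notes) and counted per gene with HTSeq (version 0.6.1), and the authors deposited whole-number counts, not normalized, for 12 rats. The strand setting of the counting was not given in the sources used here. Lines that summarise unassigned reads, 72.5 to 75.6% of the entries per rat, were left out.

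Counts were scaled by TMM, filtered with filterByExpr and fitted over all 12 rats with 1 mean per group by edgeR's quasi-likelihood test (R 4.3.3, edgeR 4.0.16, limma 3.58.1). CD and BN compare P18 with NP, NP and P18 compare BN with CD, and the interaction is BN minus CD. Rats are the replicates, no batch label was given, and depth and counting error are stated beside the values. The fits were tested on simulated data. For likeness, a prior count of 2 was added before log2 CPM was taken. Alternatives included DESeq2 (version 1.42.0).

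The count table names genes by identifier only. Symbols were tied to identifiers through the study's supplementary gene table, by matching its fold changes and mean levels to values computed from the counts, within a tolerance of 0.01. Of its 3064 symbols, 3063 were paired. In a separate control match, in which each fold change was reversed, 3.56% of symbols found a partner. No fold change or p-value of that table is reported.

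C7, the lists and the tests were chosen with earlier results of these data known. Named genes were C7, complement genes of the terminal pathway or called in any comparison, the 12 genes of highest and 5 of lowest within-group correlation with C7, the 10 nearest in group means, the 2 above and 2 below C7 in rank and those within 1 Mb. Cr1l, Mbl1 and the cell type markers were named beyond this rule, the markers from fixed lists. Identifiers without a symbol are counted and not named. The bisulfite libraries were not used here, because the position of C7 on Rnor_6.0 was not at hand, so the planned methylation tests were not run. Sequences of C7 are not shown.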

Additional observations from a re-analysis of the deposited data

Results flagged for a closer look

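C1qb, Mrc1 and Slc12a3 were singled out because the test of the difference itself, the interaction of pregnancy with strain, passed an adjusted p of 0.1 (edgeR). For C1qb the interaction was -1.02 on the log2 scale, with all 3 CD-P18 rats above all 3 CD-NP rats and overlapping BN groups. The C1qb call was lost in 10 of 12 fits that left out 1 rat. It was also lost under upper-quartile scaling and at an adjusted p of 0.05 and fold of 1.5. For Mrc1 it was -2.08, and it passed in all 12 fits that left out 1 rat. For Slc12a3 it was 0.54, with a fall in CD and a log2 fold change of 0.10 in BN that was not called, and it was lost in 9 of 12 such fits. C7 itself was not tested, since its counts chose it.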

How the results depend on the processing

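The C7 log2 values kept their sign under every alternative tried. They ran from 1.73 to 1.76 in CD, 0.73 to 0.74 in BN, 0.54 to 0.55 before pregnancy and -0.49 to -0.45 at day 18. With each rat left out in turn they ran from 1.68 to 1.81 in CD, 0.58 to 0.85 in BN, 0.44 to 0.70 before pregnancy, -0.63 to -0.36 at day 18 and -1.18 to -0.91 for the interaction. Of the complement genes, 4 were called in CD under all 8 alternatives. In BN the count of 2 became 0 at the stricter thresholds (adjusted p of 0.05, fold of 1.5) and 1 with only the 2 groups compared. Before pregnancy the count of 2 became 1 at the stricter thresholds and 1 when at least 1 CPM was required in all rats, a filter that leaves C5ar2 out. The interaction count of 1 became 0 at the stricter thresholds and 0 under upper-quartile scaling. With 1 rat left out the complement counts ran from 3 to 4 in CD, 0 to 2 in BN, 1 to 3 before pregnancy, 2 to 5 at day 18 (2 without CD-P18 replicate 1) and 0 to 1 for the interaction. Of the marker calls in CD, such fits lost Cd68 in 4 (log2 0.43 to 0.52), Nphs1 in 4 (-0.61 to -0.30), Csf1r in 5 (0.29 to 0.43), Slc34a1 in 4 (-0.49 to -0.36) and Egfl7 in 9 (-0.60 to -0.36) of 12, and the BN call of Slc5a2 in 5 (-0.64 to -0.53). Of 8 processing alternatives, 3 lost Csf1r and Egfl7, 2 lost Cd68 and Nphs1 and 1 lost Slc34a1 and Slc5a2. The day 18 call of Plcxd3 was lost under 4 of 7 (the stricter thresholds, DESeq2, only the 2 groups compared and the replicate block). The cause of these changes was not tested. Correlations of the deviations of same-numbered rats ran from -0.184 to 0.301 and in no comparison were all 3 above 0.1, so the numbers were not taken to pair the rats. With the replicate block the C7 values were 1.75, 0.74, 0.54, -0.47 and -1.02, the complement counts 4, 2, 2, 4 and 1, and the interaction count over all genes 235 in place of 134. The methylation alternatives were not run. Depth limits C6, C5ar2, Cfi, Plcxd3 and Msln, which had few reads per rat.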
